A study of Mus musculus with 69 samples.

Results

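The genes described here were the 9 cytosolic heat shock genes Hspa1a, Hspa1b, Hspa8, Hsph1, Hsp90aa1, Dnajb1, Hspb1, Cryab and Bag3, found on the array by the gene symbol of each probe set. A probe set is the group of short array probes that together report 1 transcript. Of 45141 probe sets, 19 were annotated to a member symbol alone, and these covered 8 of the 9 genes. No probe set was listed under Hspa1a, so it has no value here. Its coding sequence is nearly identical to that of Hspa1b, and the Hspa1b probe sets may read both genes. For each gene the probe set with the brightest average stands for the gene, and the others are given beside it.

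The hearts came from adult male CD-1 mice of 20 to 35 g that were awake during exposure to cyanide, a poison of cytochrome c oxidase. One set of 37 arrays compared KCN at 8.0 mg/kg under the skin with a matched volume of saline, at 1, 2, 4, 8 and 24 h. Another set of 32 arrays compared HCN gas at 327 ppm, breathed through the nose only, with air, at 1, 2, 4 and 24 h. Each of the 18 groups held 4 arrays, except saline at 2 h, saline at 4 h and KCN at 4 h, which held 3, and the titles number the arrays as biological replicates. Both exposures act on the whole animal, so these are whole-heart responses to systemic poisoning. Whole-heart signal cannot tell a change in cell makeup from a change per cell.

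Heat shock proteins are chaperones that hold unfolded proteins and help them refold. In unstressed cells heat shock factor 1 is kept inactive by these same chaperones. When unfolded proteins draw the chaperones away, the factor binds GAA-rich elements in the promoters of Hspa1a, Hspa1b, Dnajb1, Hsph1, Hspb1 and others. In heart muscle the small heat shock proteins Hspb1 and Cryab also sit on the contractile filaments, and Bag3 couples Hsp70 to them for the clearance of damaged filament proteins.

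Promoter sequence was available for 6 of the 9 members, from RefSeq on build GRCm38.p6. The stretches shown are the 150 bases before the transcript start of Hspa1b, Hsph1 and Dnajb1, whose signals moved together from mouse to mouse, and of Hspb1, which rose on both of its bright probe sets at 4 h after HCN. All run 5′ to 3′ along the gene's strand. Capitals mark the letters GAANNTTC or TTCNNGAA, each made of 2 inverted units of the element, where N is any base. Each of these motifs reads the same on both strands.
Hspa1b, chr17:34959239-34959388, minus strand: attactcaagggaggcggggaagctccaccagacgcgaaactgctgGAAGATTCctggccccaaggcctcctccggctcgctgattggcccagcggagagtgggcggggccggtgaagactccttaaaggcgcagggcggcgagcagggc
Hspb1, chr5:135887769-135887918, plus strand: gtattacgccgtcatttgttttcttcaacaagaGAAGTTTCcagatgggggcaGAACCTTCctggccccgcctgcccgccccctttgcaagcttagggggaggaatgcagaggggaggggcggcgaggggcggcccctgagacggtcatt
Hsph1, chr5:149636337-149636486, minus strand: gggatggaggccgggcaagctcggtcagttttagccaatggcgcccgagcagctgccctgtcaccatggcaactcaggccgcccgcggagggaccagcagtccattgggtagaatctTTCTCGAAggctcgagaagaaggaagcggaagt
Dnajb1, chr8:83608025-83608174, plus strand: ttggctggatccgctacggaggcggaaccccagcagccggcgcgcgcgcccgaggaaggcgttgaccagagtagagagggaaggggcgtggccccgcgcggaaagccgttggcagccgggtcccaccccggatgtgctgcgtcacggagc

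The Hspa1b stretch held 1 copy of GAANNTTC, starting 104 bases before the transcript start. Hspb1 held 2 copies, at 117 and 97 bases before it, and Hsph1 held 1 copy of TTCNNGAA at 33 bases before it. Dnajb1 and Bag3 held neither set of letters in the 250 bases before the start used, which is a statement about these letters only. Hsph1 and Dnajb1 each had 2 listed promoter stretches, and only that of the start farthest upstream was searched. Over all 32851 promoter stretches of 150 bases in the same table, 3.95% held GAANNTTC, 4.21% held TTCNNGAA and 7.73% held either. The Hspa1a stretch of 150 bases differed from that of Hspa1b at 1 base, and the 250-base stretches were the same at 98.8% of positions.

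Signals are log2 array values, on which a difference of 1 is a doubling. The arrays of both exposures appear to have been scaled as separate sets, so levels are compared within an exposure only. Cardiomyocyte markers stood between 12.61 and 13.09 on all arrays, on average over the 5 of 6 listed genes that were measured. Markers of lung epithelium (3 of 4 measured) ranged from 2.75 to 11.96 between arrays, and those of adipocytes (2 of 4 measured) from 3.82 to 10.92. The amount of these tissues may thus have differed between hearts, which was not tested. A measure of RNA integrity, how far the 3′ actin control exceeds the 5′ one in log2 units (called the actin ratio below), also differed between groups. It was 0.36 lower after KCN at 1 h and 0.41 lower after KCN at 24 h. It was 0.77 higher after HCN at 2 h and 0.59 higher after HCN at 24 h. The exact two-sided permutation p was 0.0286, the smallest possible with 4 against 4 arrays, for all of these but HCN at 2 h (p = 0.0571). After adjustment over 9 comparisons none was under 0.05, the lowest adjusted p being 0.0857.

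In each of the 9 comparisons between 0 and 7 of the 19 member probe sets changed. A probe set is called changed where limma's adjusted p was under 0.05, over 26755 probe sets, and the percentages are the share of all tested probe sets that passed in the same direction. At 1 h after KCN none of the 19 rose (1.57% of all) and 2 fell (2.53%). By 2 h none rose (3.3%) and 1 fell (3.3%). The 4 h hearts gave 2 that rose (1.21%) and none that fell (1.05%). At 8 h none rose (0.138%) or fell (0.198%), and none had an unadjusted p under 0.05. The 24 h hearts gave 2 that rose (6.79%) and 3 that fell (5.14%). An hour after HCN none rose (1.38%) or fell (1.3%), and 5 had an unadjusted p under 0.05. The share of all tested probe sets under that unadjusted threshold is not given here for any comparison. By 2 h 5 rose (8.8%) and 2 fell (16.5%). The 4 h HCN hearts gave 3 that rose (2.87%) and none that fell (4.48%), and those of 24 h gave 2 that rose (5.08%) and 1 that fell (9.25%). Between 0% and 36.8% of the member probe sets passed in a comparison. The median change of the 19 probe sets lay between −0.16 and 0.25, beside medians between −0.04 and 0.04 over all tested probe sets.

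**Figure D1:**
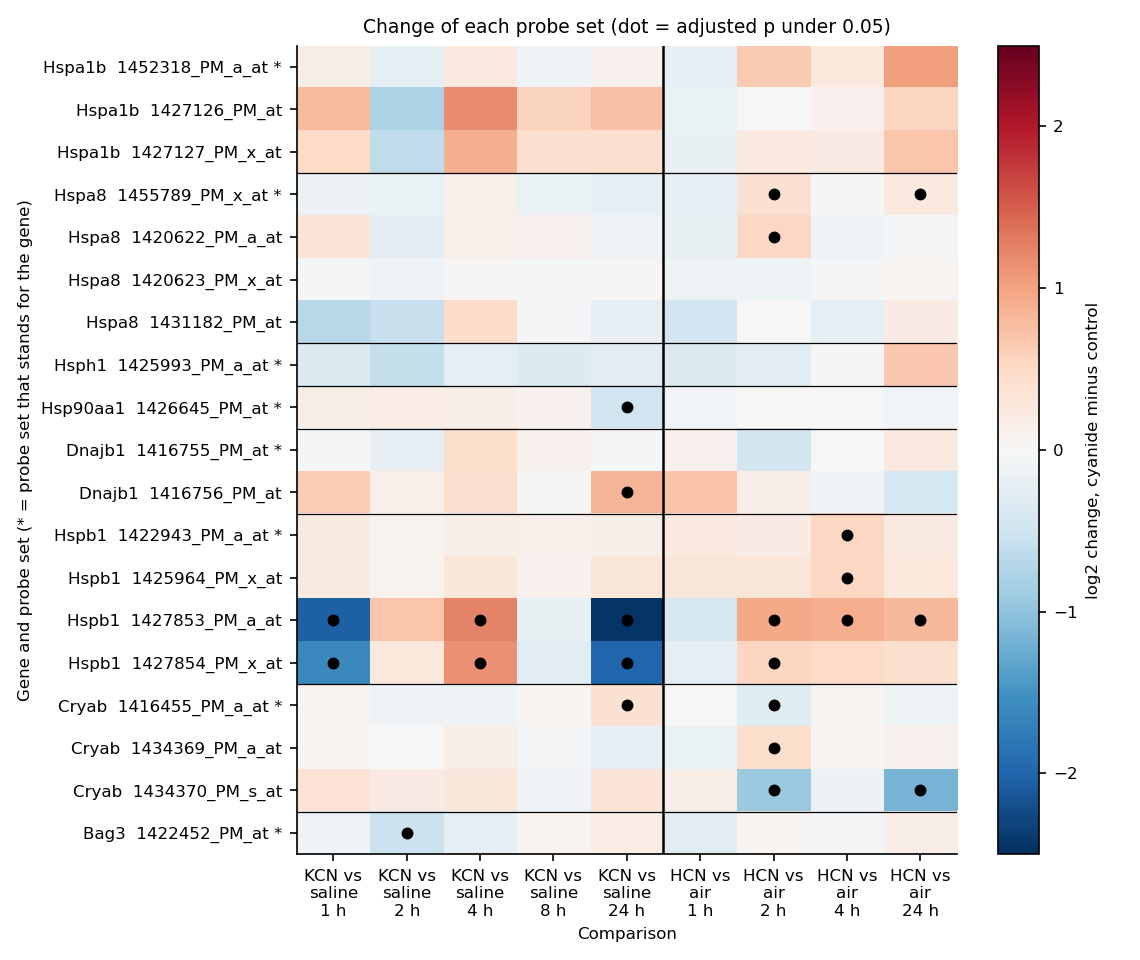
Log2 change of each of the 19 probe sets (rows, grouped by gene) in each of the 9 comparisons (columns), red for higher and blue for lower after cyanide, with a dot where limma's adjusted p was under 0.05. The strongest colours belong to 2 dim Hspb1 probe sets, with changes of −2.04 and −1.61 after KCN at 1 h and of −2.45 and −1.99 at 24 h.

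Hspa1b, the stress-inducible Hsp70, was not called in any comparison. In order of time its mean change after KCN was 0.15, −0.25, 0.25, −0.08 and 0.11, and after HCN −0.21, 0.65, 0.25 and 1.05. The spread between mice was wide. The 4 hearts taken 24 h after HCN read 6.72, 6.57, 11.15 and 5.39, against 5.98, 7.61, 5.44 and 6.59 after air. Replicate 3 stood above every other inhalation array, replicates 1 and 2 lay inside the range of air, and replicate 4 lay just below the lowest air heart. The mean difference was 1.05 ± 0.69 (SE), with a 95% interval from −0.33 to 2.44 and an adjusted p of 0.34. Without that heart it was −0.18. The other 2 Hspa1b probe sets followed the same pattern over the 69 arrays, each exposure centred on its mean (r of 0.94 and 0.97 with the first). Their largest changes were at 4 h after KCN, 1.18 ± 0.92 for 1427126_PM_at and 0.88 ± 0.85 for 1427127_PM_x_at, and neither was called in any comparison. The KCN and saline hearts of 4 h did not overlap on these 3 probe sets, which track one another and are not separate results. For 1427126_PM_at the KCN hearts read 4.35 to 4.78 and the saline hearts 2.91 to 3.74 (adjusted p = 0.56). With 3 arrays against 3, the smallest p of an exact two-sided permutation test is 0.1, so full separation says little. The share of all tested probe sets without overlap is not given here.

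Single hearts with high Hspa1b were found in treated and control groups. Those farthest above their group mean were cyanide hearts. Replicate 3 of HCN at 24 h stood 3.69 above it, and replicate 2 of HCN at 1 h 2.08. Replicate 3 of KCN at 2 h stood 2.08 above its own, and replicate 1 of KCN at 24 h 1.43. The farthest control heart, replicate 3 of air at 1 h, stood 1.21 above its own. Whether cyanide changed the spread was not tested. Replicate 2 of HCN at 1 h read 10.38, while the other 3 read 7.54, 7.54 and 7.72. Hspa1b read 9.07 in replicate 3 of KCN at 2 h, and 7.26, 5.89 and 5.75 in the others. Air at 1 h held one heart at 9.71 beside 8.44, 8.40 and 7.46. In saline at 24 h 1 heart read 7.05 and 3 read 5.42 to 5.68. In KCN at 24 h 1 read 7.44 and 3 read 5.49 to 5.58. The SE of an Hspa1b change was 0.69 where both groups held 4 arrays. At 1 h after KCN, for example, the 95% interval ran from −1.23 to 1.53, so a doubling or a halving was inside it.

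**Figure D2:**
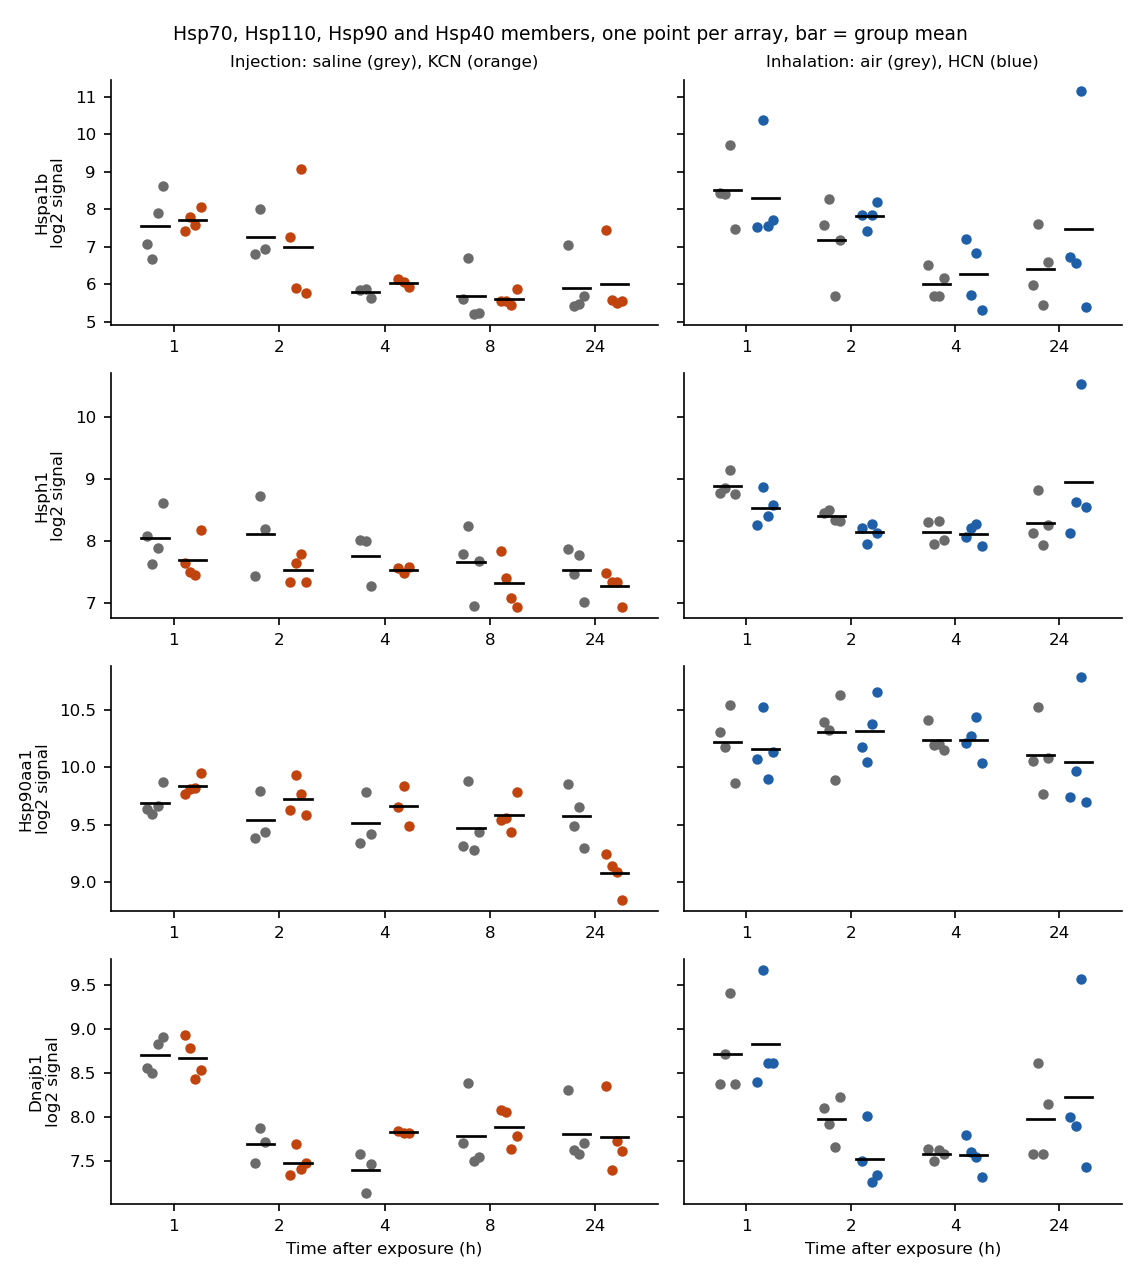
Log2 signal of Hspa1b, Hsph1, Hsp90aa1 and Dnajb1 on every array against time after exposure, with control arrays in grey, KCN in orange and HCN in blue, and black bars for group means. The single HCN 24 h heart at 11.15 for Hspa1b is also the highest HCN 24 h heart for the other 3 genes, and Hspa1b and Dnajb1 are high at 1 h in controls as well as in cyanide groups.

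Hsph1, the Hsp110 that exchanges nucleotide on Hsp70, was not called in any comparison either. Its mean was lower than in saline at all 5 times after KCN, with changes in order of time of −0.36, −0.59, −0.22, −0.35 and −0.25 and adjusted p-values between 0.26 and 0.79. At 2 h the KCN hearts read 7.34, 7.64, 7.80 and 7.35 and the saline hearts 7.44, 8.73 and 8.20, which overlap. At 24 h after HCN they read 8.13, 8.64, 10.53 and 8.54, against 8.13, 8.83, 7.95 and 8.26 after air. The difference was 0.67 ± 0.28 (adjusted p = 0.098), and 0.15 without replicate 3, the same heart that was high for Hspa1b. On leaving out any of 3 other hearts it was called, with changes of 0.81 to 0.95.

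Dnajb1, the Hsp40 that delivers clients to Hsp70, was not called by its brighter probe set at any time. Its largest differences were 0.43 ± 0.31 at 4 h after KCN (adjusted p = 0.51) and −0.45 ± 0.26 at 2 h after HCN (adjusted p = 0.21). At 4 h the KCN hearts read 7.84, 7.81 and 7.81 and the saline hearts 7.58, 7.14 and 7.46, which do not overlap. At 24 h after HCN replicate 3 read 9.57 and the other 3 read 8.00, 7.90 and 7.43. The other probe set, 1416756_PM_at, rose by 0.84 ± 0.27 at 24 h after KCN (adjusted p = 0.031), where the brighter one gave −0.03. That call was lost on leaving out any of 6 of the 8 hearts, and with the actin ratio in the fit (adjusted p = 0.095).

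Hsp90aa1, the inducible Hsp90, fell at 24 h after KCN. The KCN hearts read 9.24, 9.14, 9.09 and 8.85, all below the saline hearts at 9.85, 9.49, 9.65 and 9.30. The difference was −0.49 ± 0.17, or 1.41-fold lower (adjusted p = 0.043), and the call was lost on leaving out any of 7 of the 8 hearts, with adjusted p-values up to 0.18. It was also lost with no filter (adjusted p = 0.063) and with adjustment over all 9 comparisons (adjusted p = 0.055). The actin ratio was lower in the same KCN group, and a fit that included it kept the call. In the other 8 comparisons the change of Hsp90aa1 lay between −0.06 and 0.19 and was not called.

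Hspa8, the constitutive Hsc70, rose after HCN at 2 h. Its signal was 12.58, 12.65, 12.44 and 12.37 after HCN and 12.21, 12.01, 12.12 and 12.15 after air, with no overlap. The rise was 0.39 ± 0.09 (adjusted p = 0.00040), and the probe set 1420622_PM_a_at rose by 0.51 ± 0.14 (adjusted p = 0.0055). The probe set 1420623_PM_x_at gave −0.11 and 1431182_PM_at gave 0.02, neither called. The actin ratio was higher in these HCN hearts. Neutrophil markers were higher too, with both measured genes passing and a mean level of 6.85 to 8.95 against 5.32 to 7.33 in air, and 2 of 4 endothelial markers were lower (6.51 to 7.35 against 7.33 to 7.57 over the list). The part of these cells in the result was not tested. Without the 2 HCN hearts of highest ratio (1.49 and 1.95, against 0.79 and 0.65) the change of Hspa8 was 0.29, with an adjusted p of 0.053. The call at 2 h was lost under 2 of 12 other settings, this one and the minimum of 1.5-fold. It held with the actin ratio in the fit and on leaving out each heart in turn. The 2 h call of 1420622_PM_a_at was lost under 1 of 12 other settings, the minimum of 1.5-fold, and so held without these 2 hearts. Hspa8 also rose at 24 h after HCN, by 0.25 ± 0.09 (adjusted p = 0.037), with overlapping groups. Leaving out any of 5 of the 8 hearts ended that call, as did the actin ratio in the fit (0.21, adjusted p = 0.30), and 1420622_PM_a_at gave −0.04. In all the call was lost under 7 of 11 other settings. After KCN at 24 h it read 11.69, 11.84, 11.77 and 11.86 against 12.13, 11.96, 11.94 and 12.09, a difference of −0.23 ± 0.09 that did not pass (adjusted p = 0.057). The HCN and KCN changes of Hspa8 differed from each other at 2 h by 0.55 ± 0.12 (adjusted p = 0.0054) and at 24 h by 0.48 ± 0.12 (adjusted p = 0.0024). With the actin ratio in the fit these were 0.50 and 0.42 and were not called (adjusted p of 0.055 and 0.10). Of all tested probe sets 5.74% differed between exposures at 2 h and 18.8% at 24 h, against 0.198% and 1.87% for the hours 1 and 4. Dose and route differed together, so this compares 2 models and not routes at a matched dose.

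Hspb1, the small heat shock protein Hsp27, rose after HCN at 4 h. Its 4 HCN hearts read 12.78, 12.80, 12.92 and 12.72 and the air hearts 12.32, 12.24, 12.28 and 12.34. No HCN heart came within the range of air. The rise was 0.51 ± 0.12, or 1.43-fold (adjusted p = 0.0021), and 0.53 ± 0.12 on the second bright probe set, 1425964_PM_x_at (adjusted p = 0.0026). Both calls held on leaving out each heart in turn. The actin ratio differed by 0.01 between these groups, and the call held with it in the fit. Neutrophil markers were also higher, 7.26 to 8.22 against 5.09 to 5.76 in air, over the 2 of 4 listed genes that were measured, and both passed the test. Their part in the Hspb1 result was not tested. Hspb1 was on average higher after cyanide in all 9 comparisons, by 0.08 to 0.24 in the other 8, none of which passed.

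The other 2 Hspb1 probe sets, 1427853_PM_a_at and 1427854_PM_x_at, were dim and went their own way. Measured the same way, they tracked each other (r = 0.94) and did not track the bright pair (r between −0.14 and −0.11). For the first of them saline hearts read 6.54, 6.82, 6.66 and 7.01 at 1 h and 8.08, 7.26, 6.36 and 6.02 at 24 h, but 3.52 to 4.96 at 2, 4 and 8 h. KCN hearts read 4.29 to 5.74 at all 5 times. After KCN it fell by 2.04 ± 0.25 at 1 h (adjusted p = 3.6e-08) and fell by 2.45 ± 0.25 at 24 h (adjusted p = 1.4e-10), the times at which saline was high. It rose by 1.24 at 4 h after KCN (adjusted p = 0.013), a call lost without replicate 2 of either group. After HCN it rose by 0.95, 0.90 and 0.81 at the last 3 times (adjusted p of 0.0033, 0.015 and 0.020). In a fit with the actin ratio the first and last of these became 0.57 and 0.51 and were not called. Without replicate 2 of air the 4 h change was not called, and at 24 h leaving out any of 4 of the 8 hearts ended the call. Lung epithelium markers read 2.84 to 2.96 in saline at 1 h and 8.36 to 11.07 in KCN at 1 h. At 4 h they read 2.936 to 2.998 in saline and 6.908 to 10.403 in KCN. By 24 h they read 2.749 to 7.574 in saline and 2.904 to 9.864 in KCN. Of the 3 measured markers, 2 passed as higher after KCN at 1 h, and 0 passed at 4 h or at 24 h. The part of lung tissue in the changes of these Hspb1 probe sets was not tested.

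Cryab, the alpha B-crystallin of heart and lens, rose after KCN at 24 h on its brightest probe set. The KCN hearts read 12.37, 12.30, 12.38 and 12.42, above all saline hearts at 11.86, 11.94, 12.08 and 12.02. The rise was 0.39 ± 0.08, or 1.31-fold (adjusted p = 0.00071), and it was called on leaving out each heart in turn. Saline at 24 h was also the lowest of all injection groups on this probe set. The KCN hearts at 24 h stood inside the range of saline at 8 h (12.25 to 12.45) and at 2 h (12.24 to 12.55). The actin ratio was 0.41 lower in this KCN group, and the call held with the ratio in the fit. In the same comparison 2 of 4 macrophage markers passed as higher (6.75 to 6.93 against 6.16 to 6.60 over the list), as did 1 of 4 endothelial markers (6.89 to 7.38 against 6.68 to 6.94), and their part in the changes of Cryab and Hsp90aa1 was not tested. The other Cryab probe sets were not called there: 1434369_PM_a_at gave −0.22 and 1434370_PM_s_at gave 0.32. After HCN at 2 h the probe sets disagreed in sign. The brightest fell by 0.30 ± 0.08 (adjusted p = 0.0045), 1434370_PM_s_at fell by 0.93 ± 0.20 (adjusted p = 0.00037), and 1434369_PM_a_at rose by 0.45 ± 0.08 (adjusted p = 4.9e-05).

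The Cryab hearts at 2 h after HCN differed among themselves. On the brightest probe set they read 12.29, 11.96, 12.58 and 12.58, against 12.54 to 12.75 in air. The 2 low hearts, replicates 1 and 2, were those of highest actin ratio. With the ratio in the fit the change was 0.01, and without both hearts it was −0.07, neither called. Without replicate 2 alone the change was −0.17 and was not called. The rise on 1434369_PM_a_at was called under 11 of 12 other settings, all but the minimum of 1.5-fold. It thus held with the ratio in the fit and without both low hearts, and also on leaving out each heart in turn. On 1434370_PM_s_at those 2 hearts read 6.82 and 6.14 and the other 2 read 7.49 and 7.68, all below air at 7.79 to 8.12, and with the ratio in the fit its change was −0.03 and was not called. That probe set also fell by 1.17 ± 0.20 at 24 h after HCN (adjusted p = 2e-05), at 6.71, 6.70, 6.68 and 7.56 against 7.96 to 8.24, and with the actin ratio in the fit the change was −0.47 (adjusted p = 0.075). On the brightest probe set the HCN change minus the KCN change at 24 h was −0.50 ± 0.12 (adjusted p = 0.0011), and −0.10 with the actin ratio in the fit, which was not called.

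**Figure D3:**
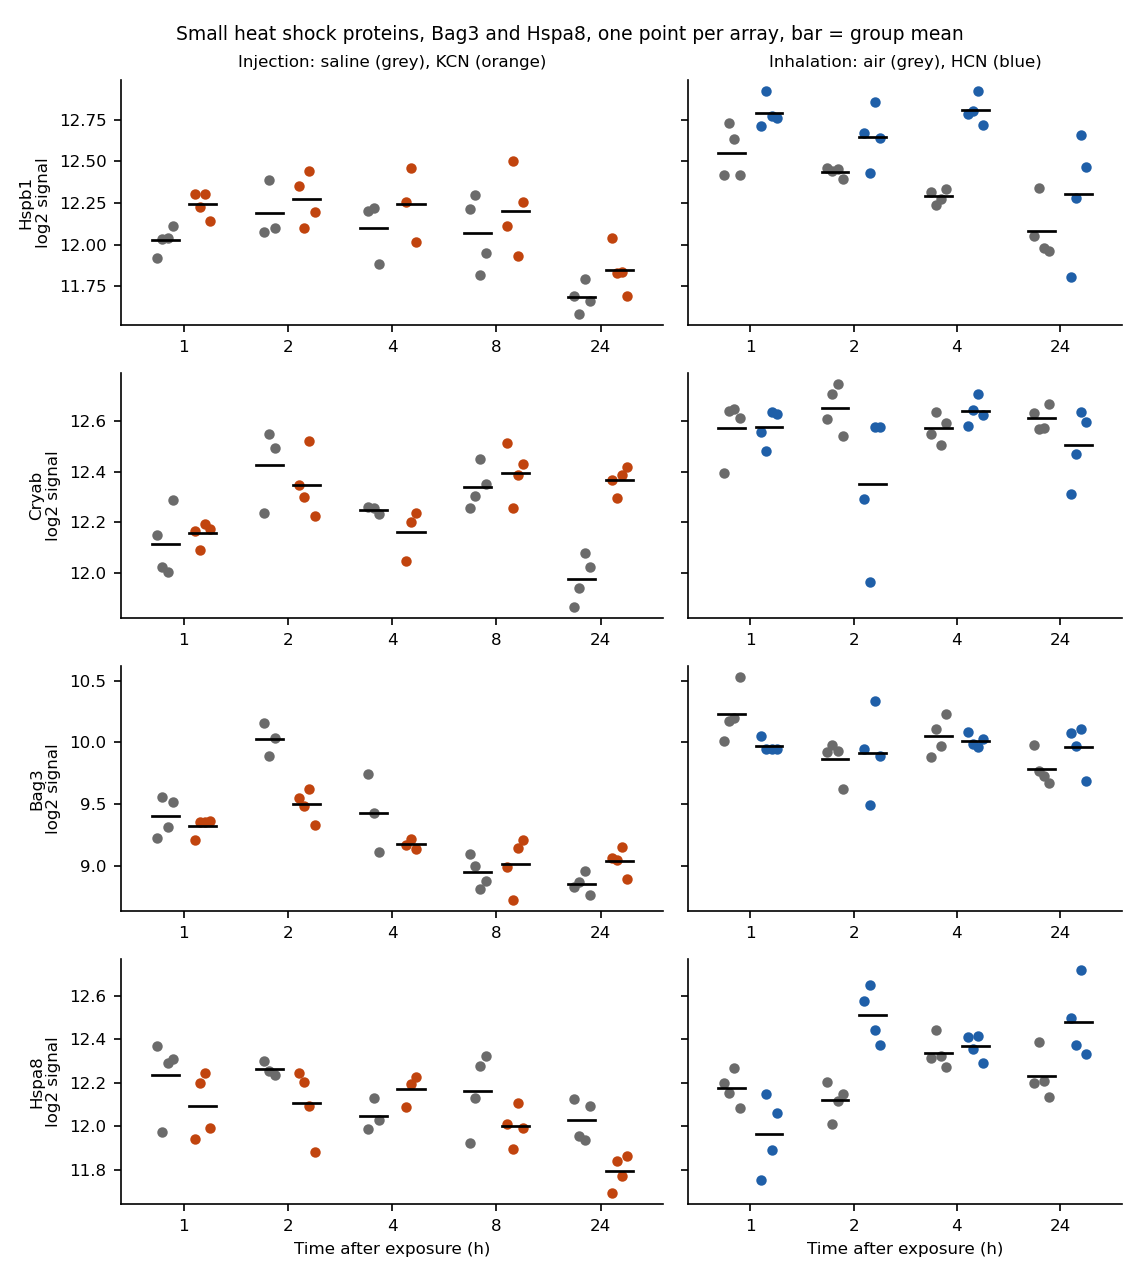
Log2 signal of Hspb1, Cryab, Bag3 and Hspa8 on every array against time after exposure, with control arrays in grey, KCN in orange, HCN in blue and black bars for group means. The HCN 4 h hearts stand above air for Hspb1 (12.72 to 12.92 against 12.24 to 12.34), and the saline 2 h hearts stand above all other injected hearts for Bag3.

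Bag3, the co-chaperone that links Hsp70 to small heat shock proteins, fell after KCN at 2 h. The KCN hearts read 9.55, 9.49, 9.62 and 9.33, and the saline hearts 10.16, 9.89 and 10.04. The groups did not overlap. The fall was 0.53 ± 0.13, or 1.44-fold (adjusted p = 0.0052), and it was called on leaving out each heart in turn. Saline at 2 h was also the highest of all injection groups, and the KCN hearts at 2 h stood inside the range of saline at 1 and 4 h (9.11 to 9.74). After HCN at 2 h the change was 0.05, and the difference between exposures was 0.58 ± 0.17 (adjusted p = 0.033). That difference was lost on leaving out any of 6 of 15 hearts, and with the actin ratio in the fit (adjusted p = 0.081). At the remaining 7 comparisons Bag3 changed by between −0.26 and 0.19 and was not called.

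Several members differed between harvest times in hearts given no cyanide. Dnajb1 was highest at 1 h in both kinds of control. In saline it averaged 8.70 ± 0.20 (SD, n = 4) at 1 h and 7.39 ± 0.23 (n = 3) at 4 h, a range over the 5 times of 1.31 (limma F test, adjusted p = 0.0017, 38.4% of all tested probe sets passing). In air it averaged 8.72 ± 0.49 (n = 4) at 1 h and 7.58 ± 0.06 (n = 4) at 4 h (adjusted p = 0.010, 16.8% of all passing). Without replicate 3 of air at 1 h the call in air was lost (adjusted p = 0.091). The other Dnajb1 probe set passed in saline (adjusted p = 0.0017) and not in air (adjusted p = 0.19). At 1 h the cyanide hearts averaged 8.67 after KCN and 8.83 after HCN.

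Hspa1b was also highest at 1 h by its brightest probe set in both controls. The order of the later times was not tested. In air it averaged 8.51 ± 0.92 at 1 h and 6.01 ± 0.41 at 4 h (adjusted p = 0.027), a call that was lost without any 1 of 4 arrays. In saline it averaged 7.56 ± 0.86 at 1 h and 5.68 ± 0.71 at 8 h (adjusted p = 0.058), and its other 2 probe sets, highest at 2 h, passed in saline (adjusted p of 0.0072 and 0.028). Those 2 did not pass in air (adjusted p of 0.069 and 0.065). Ordered by mean within an exposure, every group of Hspa1b overlapped its neighbour, in 9 of 9 pairs for injection and 7 of 7 for inhalation. For Dnajb1 the 1 h groups of injection stood apart, KCN at 1 h being above the next group with no overlap.

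Bag3 averaged 10.03 ± 0.14 in saline at 2 h (n = 3) and 8.85 ± 0.08 at 24 h (n = 4), a range of 1.18 (adjusted p = 4.7e-10). In air it ranged from 10.23 ± 0.22 at 1 h to 9.79 ± 0.13 at 24 h (adjusted p = 0.018). Hspb1 was highest at 2 h in saline (12.19) and at 1 h in air (12.55), and lowest at 24 h in both (11.68 and 12.08), with adjusted p of 0.0053 and 0.013. The Cryab probe sets disagreed. The brightest passed in saline (adjusted p = 0.00015) and not in air (adjusted p = 0.82), 1434369_PM_a_at passed in air (adjusted p = 0.0013) and not in saline (adjusted p = 0.29), and 1434370_PM_s_at passed in neither. The second bright Hspb1 probe set passed in saline (adjusted p = 0.00090) and not in air (adjusted p = 0.069). Hsph1 and Hsp90aa1 did not pass in either control. Neither did the brightest Hspa8 probe set, whereas 1420622_PM_a_at passed in both (adjusted p of 1.4e-06 in saline and 0.0023 in air) and 1420623_PM_x_at in saline (adjusted p = 0.00016). The mice were handled, injected or confined before each harvest, and the time of day of each harvest is not given in the sources used here, so time after exposure cannot be told apart from either.

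The arrays of 1 group differed from one another in a shared way. The signal of each array was set against its own group mean, over all 69 arrays, so that differences between group means do not contribute. On this measure Hspa1b correlated with Dnajb1 (Pearson r = 0.77, Spearman rho = 0.62), Hsp90aa1 (r = 0.75, rho = 0.69) and Hsph1 (r = 0.69, rho = 0.60). Without the 2 arrays farthest from the median of Hspa1b these became 0.65, 0.66 and 0.56. With Hspb1 the correlation was 0.51, and with Hspa8, Cryab and Bag3 it was 0.37, 0.17 and 0.16. For scale, the median correlation of Hspa1b with 12424 other genes was 0.002, and its 99th percentile 0.36. These are descriptions: all genes of an array share its RNA and its hybridisation. Differences in spread between groups also remain in them. The SD of Hspa1b was 2.53 after HCN and 0.93 after air at 24 h, and 0.31 and 1.09 at 2 h.

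The heart farthest from its group for Hspa1b was replicate 3 of HCN at 24 h. It stood 4.92 above the mean of the other 3 hearts of its group for Hspa1b, 2.09 for Hsph1, 1.79 for Dnajb1 and 0.98 for Hsp90aa1. For Hspb1 it stood 0.48 above them, and for Bag3 0.19. Its actin ratio of 1.06 lay between those of the other 3 hearts (0.64 to 1.25), its adipocyte level of 10.86 was close to the next (10.71), its neutrophil marker level was the lowest of the group (3.93 against 4.94 to 6.03), and its mean correlation with the other arrays of its group was 0.988. Replicate 2 of HCN at 1 h stood 2.78 above the others for Hspa1b, 1.13 for Dnajb1, 0.49 for Hsp90aa1 and 0.45 for Hsph1. Replicate 3 of KCN at 2 h stood 2.77 above the others for Hspa1b but 0.10 below them for Dnajb1, so not every high heart was high for all 4 genes.

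**Figure D4:**
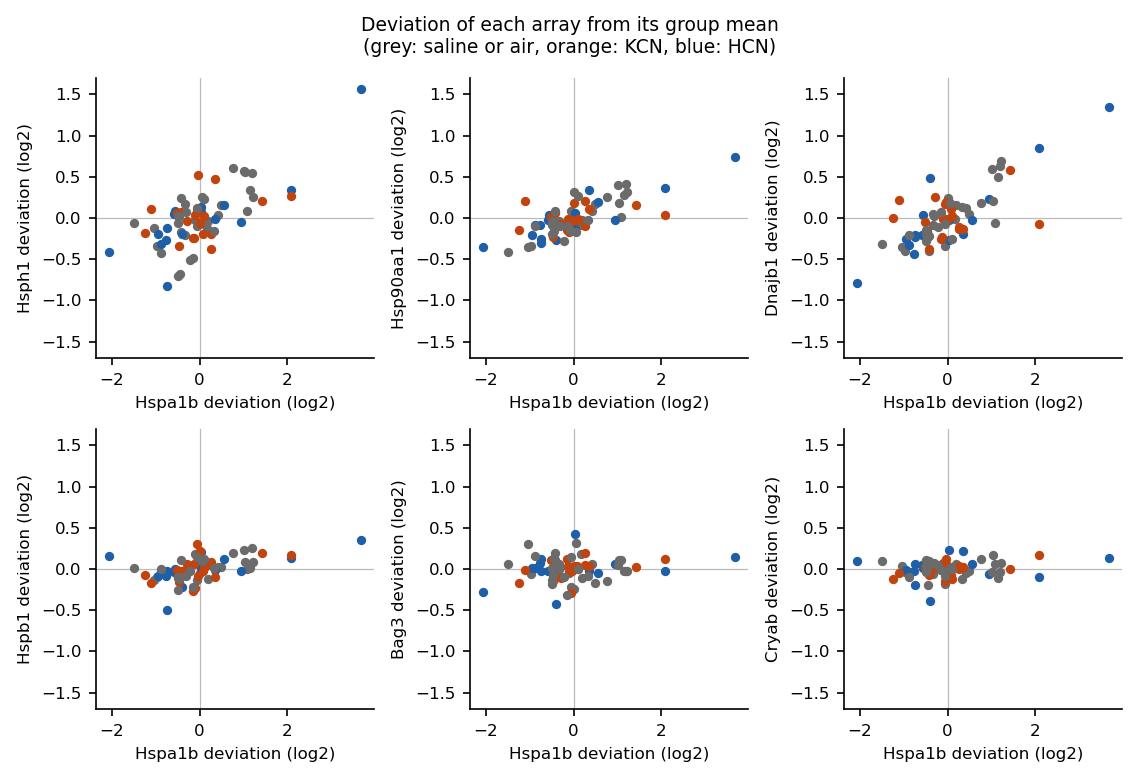
Each point is 1 array, placed by how far Hspa1b (horizontal) and another member (vertical) lie from their group means, in log2 units, with control arrays in grey, KCN in orange and HCN in blue. Hsph1, Hsp90aa1 and Dnajb1 rise along with Hspa1b (r of 0.69 to 0.77), and Bag3 and Cryab do not follow it (r of 0.16 and 0.17).

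Among all other measured genes, Dnaja1, an Hsp40 partner of Hsp70 and Hsp90, was the closest to this group. Within groups it had the highest correlation of 12424 genes with Hspa1b (r = 0.81), Hsph1 (0.78), Hsp90aa1 (0.80) and Dnajb1 (0.84). Likeness was also measured over the 69 arrays after subtracting the mean of each exposure, so that group differences enter. By this measure Dnaja1 was the closest to Hspa1b (0.79), Hsph1 (0.79) and Dnajb1 (0.79), and the second closest to Hsp90aa1 (0.56). For Hspa1b the next were Slc20a1 (0.72) and Nr4a1 (0.65), and for Dnajb1 Pcf11 (0.73) and Rybp (0.70). Hsp90aa1 was closest to Elf1 (0.57), with Ifrd1 (0.53) after Dnaja1. For Hsph1 the next were Ahsa1 (0.76) and Ahsa2 (0.73), activators of the Hsp90 ATPase. The remaining members had other neighbours. For Hspb1 they were Tnfrsf12a (0.78), Mt1 (0.78) and Cdkn1a (0.76). For Cryab they were Pkm (0.82), Mrpl4 (0.82) and Tecr (0.81). Bag3 was closest to Adamtsl4 (0.79), Notch4 (0.78) and Polg (0.73), and Hspa8 to Ppp1cb (0.72), Hnrnph2 (0.71) and Ehd1 (0.71).

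The wider chaperone system was read from a list of 57 other genes in 9 roles, of which 51 were tested, 1 probe set a gene. In the KCN hearts 1 rose and none fell at 1 h, beside 1.73% and 2.52% of all genes. At 2 h 1 rose and 2 fell, beside 2.02% and 4.36%. At 4 h 1 rose and 1 fell, beside 1.05% and 1.25%, and at 8 h none passed, beside 0.153% and 0.298%. The 24 h KCN hearts gave 12 that rose and 6 that fell, beside 9.25% and 4.23% of all genes. In the HCN hearts 1 rose and none fell at 1 h, beside 1.43% and 1.44% of all genes. At 2 h 4 rose and 14 fell, beside 6.96% and 18.4% of all genes. At 4 h 2 rose and 1 fell, beside 3.10% and 5.70%, and at 24 h 11 rose and 3 fell, beside 5.75% and 4.46%. Once the actin ratio was in the fit, the number that passed went from 18 to 8 at 24 h after KCN. For HCN it went from 18 to 4 at 2 h and from 14 to 2 at 24 h. Leaving out 1 heart at a time gave 11 to 18, 11 to 24 and 6 to 15 in these 3 comparisons. The lowest counts came without replicate 1 of saline or KCN at 24 h, without replicate 2 of HCN at 2 h and without replicate 3 of HCN at 24 h. At 24 h after HCN 9 passed without replicate 3 of air or replicate 2 of HCN.

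Of the 8 subunits of TRiC, the ring-shaped chaperonin that folds actin and tubulin, 7 rose at 24 h after HCN. Their median change was 0.24, beside 0.07 over all genes. Cct3 rose by 0.34 ± 0.08 (adjusted p = 0.0019) and Tcp1 by 0.21 ± 0.05 (adjusted p = 0.0026). Without replicate 3, the heart of high Hspa1b, 4 of 8 passed, and with the actin ratio in the fit 1 passed. In KCN hearts of 24 h none of the 8 rose and 1 fell.

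Among the DnaJ proteins Dnajb4, a close relative of Dnajb1, rose by 0.55 ± 0.10 after HCN at 2 h (adjusted p = 2.3e-05). It rose by 0.55 ± 0.10 at 4 h (adjusted p = 7.8e-05) and by 0.42 ± 0.10 at 24 h (adjusted p = 0.0016). At 4 h it was the wider gene of lowest p, ahead of Bag2, an exchange factor of Hsp70, which rose by 0.62 ± 0.12 (adjusted p = 0.00049). After KCN Dnajb4 rose by 0.34 ± 0.11 at 2 h (adjusted p = 0.037). Chordc1, a partner of Hsp90, fell by 0.44 ± 0.14 at 4 h after HCN (adjusted p = 0.041) and rose by 0.66 ± 0.14 at 24 h (adjusted p = 0.00042).

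Genes of lowest p in the other comparisons came from several roles. Hspb3, a muscle small heat shock protein, rose by 0.76 ± 0.22 at 1 h after HCN (adjusted p = 0.036), and Dnajb6 by 0.34 ± 0.10 at 1 h after KCN (adjusted p = 0.034). At 2 h after HCN Stub1, the ubiquitin ligase of Hsp70 clients, fell by 0.60 ± 0.10 (adjusted p = 7.5e-06), and Cdc37, the Hsp90 co-chaperone for kinases, by 0.62 ± 0.10 (adjusted p = 8.3e-06). Hspb2, the neighbour of Cryab in the genome, fell there by 0.51 ± 0.10 (adjusted p = 0.00010). After KCN at 24 h Cdc37 rose by 0.64 ± 0.10 (adjusted p = 1.5e-05) and Trap1, the mitochondrial Hsp90, by 0.43 ± 0.09 (adjusted p = 0.00035). The Hsp90 partner Ptges3 fell by 0.54 ± 0.09 there (adjusted p = 1.4e-05), and Ppid fell by 0.57 ± 0.11 (adjusted p = 0.00039). Ppid also fell at 2 h after KCN, by 0.48 ± 0.12 (adjusted p = 0.0085), and Hspb7, a cardiac small heat shock protein, fell by 0.38 ± 0.11 (adjusted p = 0.019). At 4 h after KCN Cct2 rose by 0.28 ± 0.07 (adjusted p = 0.019), and Bag6 fell by 0.66 ± 0.18 (adjusted p = 0.034).

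**Figure D5:**
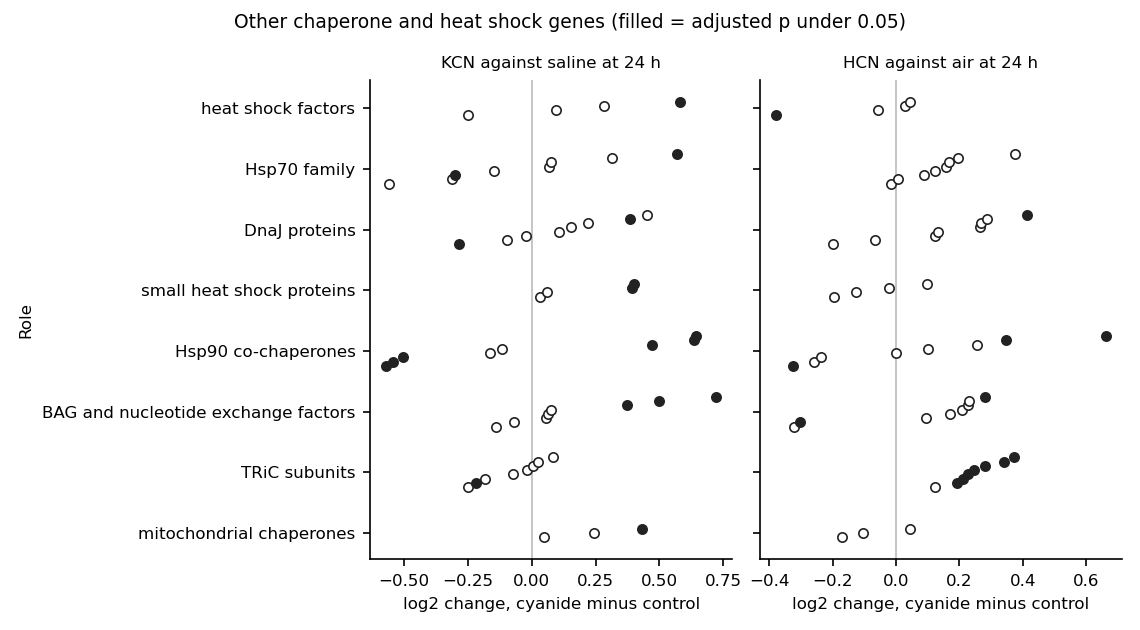
Log2 change of each of the 51 other chaperone and heat shock genes at 24 h, by role (rows; the Hsp90 family role had no tested gene), for KCN (left) and HCN (right), filled where limma's adjusted p was under 0.05. For HCN 7 of the 8 TRiC subunits are filled and to the right of 0, and for KCN filled points lie on both sides of 0 among the Hsp90 co-chaperones.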

How the data were processed

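Signals of the Affymetrix HT MG-430 PM array from 69 hearts were used as deposited. The authors deposited log2 values, with a range of 1.83 to 13.94, and MAS5 is named without a version or role per the submitters' processing notes. Each array began with 100 ng of total RNA, per the labels' protocols. Of 45141 probe sets, 28898 had 1 gene symbol, 551 several and 15588 none, beside 104 controls, in GEO's platform annotation. Probe sets with at least 1 group mean above 3.23, the median of all group means, were tested (26755, among them all 19 of the members). limma 3.58.1 in R 4.3.3 fitted 1 mean per group (51 residual degrees of freedom, intensity trend). P-values were two-sided and adjusted by the Benjamini-Hochberg method within each comparison, with calls at 0.05. The fit was checked on simulated data. Members, lists and tests were chosen with earlier results of these data known. The text names the members, the wider-list genes of lowest p (up to 4 a comparison) and each member's 3 most correlated genes. The number of arrays limits precision, and p-values measure the spread between these arrays. A missing Hspa1a probe set and the promoters of Hspa8, Hsp90aa1 and Cryab were not analysed here. Alternatives are given in the closing section.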

Additional observations from a re-analysis of the deposited data

Results flagged for a closer look

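In 120 combinations of a gene and a group of 4 arrays, 8 held an array whose gap to its nearest neighbour exceeded 0.829 of the group's range, by Dixon's criterion, which chance passes in about 1 of 20 groups. For Hspa1b these were replicate 2 of HCN at 1 h (10.38), replicate 1 of KCN at 24 h (7.44) and replicate 1 of saline at 24 h (7.05), all high. That saline heart was also high for Dnajb1 (8.31). Bag3 was low in replicate 4 of air at 2 h (9.62) and replicate 1 of KCN at 1 h (9.21), and high in replicate 1 of HCN at 1 h (10.05). Cryab was low in replicate 1 of air at 1 h (12.40).

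The change after HCN minus the change after KCN differed from 0 (limma, adjusted p under 0.05) for 14 probe set and time combinations. The 19 member probe sets were tested at each of 1, 2, 4 and 24 h. Of all tested probe sets 0.198%, 5.74%, 1.87% and 18.8% differed at these times. At 1 h these were the dim Hspb1 probe sets 1427853_PM_a_at (1.62) and 1427854_PM_x_at (1.38). At 2 h they were Bag3 (0.58), Hspa8 by its brightest probe set (0.55) and by 1420622_PM_a_at (0.79), and Cryab by 1434369_PM_a_at (0.45) and 1434370_PM_s_at (−1.13). At 24 h they were the dim Hspb1 pair (3.26 and 2.38), Dnajb1 by 1416756_PM_at (−1.28), Hspa8 (0.48), and Cryab by its brightest probe set (−0.50), by 1434369_PM_a_at (0.33) and by 1434370_PM_s_at (−1.49). The Cryab probe sets differ in sign at both times. With the actin ratio in the fit 9 of the 14 no longer passed, and the dim Hspb1 pair at both times and 1420622_PM_a_at still did.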

How the results depend on the processing

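The numbers of member probe sets called stayed within 1.5 times the reported ones under quantile normalization, median centring, no filter, a stricter filter, no intensity trend, arrays of 1 exposure only and adjustment over the 9 comparisons together. Fitting only the 2 groups compared gave 1 at 4 h after KCN, 9 at 24 h after KCN and 3 at 2 h after HCN. With the actin ratio as a covariate 3 were called at 2 h and 0 at 24 h after HCN. A minimum of 1.5-fold left 0 at 2 h after KCN, 3 at 24 h after KCN, 2 at 2 h after HCN and 1 at 4 h after HCN. Without the 2 HCN 2 h hearts of highest actin ratio, chosen after seeing the data, 2 were called. Leaving out 1 heart at a time gave 0 to 2 at 4 h after KCN (0 without KCN replicate 2, 1 without saline replicate 2). It gave 3 to 4 at 24 h after KCN (3 without saline replicate 2 or 3 or KCN replicate 1, 3 or 4). After HCN it gave 6 to 7 at 2 h, 2 to 3 at 4 h and 1 to 5 at 24 h (1 without air replicate 1 or 3, 5 without HCN replicate 1). The causes were not tested.

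Where the brightest probe set or the alternative was called, these values had the opposite sign. For Hspb1 the dim pair gave −2.04 and −1.61 at 1 h and −2.45 and −1.99 at 24 h after KCN. Dnajb1 gave 0.84 and Cryab −0.22 at 24 h after KCN. After HCN at 2 h Cryab gave 0.45 by 1434369_PM_a_at and 0.0080 with the covariate, and Hspa8 −0.11. Hspa8 gave −0.043 at 24 h after HCN. Uncalled changes of the brightest probe sets also turned sign, for example 4 under quantile normalization, 4 under median centring, 1 under the block and 14 with the covariate.

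Replicate numbers were not used as pairs in the main fit. Same-numbered deviations correlated between −0.14 and 0.32, and in no comparison were all above 0.1. At 1 h their mean correlation was 0.075 for KCN, against −0.025 for other numbers, and 0.13 for HCN, against −0.043. In both, 3 of 4 pairs matched best by number. Only at 24 h after KCN was the same-number mean lower (−0.033 against 0.011). Whether hearts of the same number shared a day or run was not tested. With the number as a replicate block 2, 1, 2, 0 and 5 probe sets were called after KCN and 0, 7, 3 and 2 after HCN, in order of time. The block took Hspa8 at 24 h after HCN to an adjusted p of 0.052. It took 4 differences between exposures past 0.05, those of 1427853_PM_a_at at 1 h (0.062) and of Bag3 (0.078), 1420622_PM_a_at (0.055) and 1434369_PM_a_at (0.071) at 2 h.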
